A study of Mus musculus with 4 samples.

Results

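The genes described are 6 intracellular serine protease inhibitors of the serpin B family (Serpinb9b, Serpinb1a, Serpinb2, Serpinb6a, Serpinb8 and Serpinb9) and both plasminogen activator genes, Plau and Plat. They are 8 of 19938 genes that carried a symbol of their own on the array. They were chosen by family and pathway, with the values of these same arrays already known, and each is covered by 1 feature that carries no other symbol. Their values and differences are therefore given as a description, with no test.

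The cells were MC3T3-E1, a line of mouse calvarial pre-osteoblasts of C57BL/6 origin, grown in alpha minimum essential medium with 1% serum. The 4 groups were cells given 100 µM citalopram, a selective serotonin reuptake inhibitor, for 7 days, untreated control cells at day 7, cells given 100 µM citalopram for 3 days, and untreated control cells at day 3. Each group has 1 array, made from total RNA, so no value has a replicate error. All 4 cultures are of 1 cell line, which limits them as a model of bone. The labels describe 3 wells per arm and do not state whether these were pooled for an array.

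Serpins inhibit proteases by offering a reactive loop as bait, after which the cleaved loop inserts into the serpin and traps the protease. Members of clade B mostly stay inside the cell, where they are known to protect it from proteases that enter the cytosol. The plasminogen activators urokinase (Plau) and tissue-type activator (Plat) are secreted proteases that turn plasminogen into plasmin. Plasmin dissolves fibrin and takes part in matrix turnover, and osteoblasts are among the cells known to make both activators. Serpinb2, also called PAI-2, is known as an inhibitor of both activators and so links the families.

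Most of the serpin B genes lie in a cluster on chromosome 13 (Serpinb1a, Serpinb9, Serpinb9b and Serpinb6a among them) or on chromosome 1 (Serpinb2 and Serpinb8). Serpinb9 and Serpinb9b follow each other on chromosome 13 with no protein-coding gene in between, yet had unlike profiles on these arrays. Their RefSeq promoter windows (build GRCm38.p6, 250 bases before to 50 after the annotated start) are shown as a description of the copies. The part of the sequence differences in the 2 profiles was not tested. Capitals mark runs of at least 10 bases that the other window holds unchanged. Both are on the + strand, Serpinb9b at chr13:33027164-33027463 and Serpinb9 at chr13:33004291-33004590.
Serpinb9b: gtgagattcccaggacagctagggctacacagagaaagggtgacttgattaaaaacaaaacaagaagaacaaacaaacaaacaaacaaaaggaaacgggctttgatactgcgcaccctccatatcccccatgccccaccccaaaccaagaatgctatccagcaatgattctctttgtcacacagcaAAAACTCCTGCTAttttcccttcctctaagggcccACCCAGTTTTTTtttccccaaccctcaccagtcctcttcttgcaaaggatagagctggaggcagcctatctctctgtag
Serpinb9: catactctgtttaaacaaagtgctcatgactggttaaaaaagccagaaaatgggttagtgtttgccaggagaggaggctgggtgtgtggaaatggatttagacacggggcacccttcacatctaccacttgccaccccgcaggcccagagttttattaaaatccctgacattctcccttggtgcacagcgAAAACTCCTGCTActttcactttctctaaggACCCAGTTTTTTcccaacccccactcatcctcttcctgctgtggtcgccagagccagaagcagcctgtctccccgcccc
A global alignment paired 276 bases of these windows, of which 186 were identical (67.4%), and left 48 gap positions. The shared runs were 2 in number, the longer of 13 bases, and both lay before the annotated start.

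The windows of Serpinb8 and Serpinb2 are shown for matches to the AP-1 motif TGANTCA, read on both strands and given in capitals. AP-1, a dimer of Fos and Jun proteins, is known to act on plasminogen activator and PAI-2 genes, and the motif was chosen after the array values were known. Serpinb8 is at chr1:107589756-107590055 and Serpinb2 at chr1:107511173-107511472, both on the + strand of GRCm38.p6.
Serpinb8: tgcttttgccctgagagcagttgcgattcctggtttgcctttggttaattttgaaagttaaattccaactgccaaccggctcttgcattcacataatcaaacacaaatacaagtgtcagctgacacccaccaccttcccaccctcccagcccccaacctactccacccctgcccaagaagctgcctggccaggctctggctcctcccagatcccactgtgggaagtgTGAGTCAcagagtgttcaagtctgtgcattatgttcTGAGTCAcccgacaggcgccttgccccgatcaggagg
Serpinb2: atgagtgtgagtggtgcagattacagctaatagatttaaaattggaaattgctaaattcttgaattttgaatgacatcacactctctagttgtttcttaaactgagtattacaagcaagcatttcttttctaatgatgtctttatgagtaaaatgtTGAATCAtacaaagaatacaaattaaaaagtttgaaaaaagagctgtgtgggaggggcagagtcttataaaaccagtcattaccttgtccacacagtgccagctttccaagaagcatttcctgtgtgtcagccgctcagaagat
In the Serpinb8 window the matches began 23 bases before and 13 bases after the annotated start, and in the Serpinb2 window 94 bases before it. Serpinb2 has a second annotated start, and the same letters lie 181 bases before that one. At least 1 match was held by 2565 of all 32851 promoter windows (7.81%), and 2 or more by 151 (0.460%). A match is a run of letters and not a measured binding site. The table held 7 windows for 5 of the 8 genes, and in the windows of Serpinb9b, Serpinb9 and Serpinb6a these letters did not occur.

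The arrays correlated with Pearson's r between 0.986 and 0.995 over 35556 features, and their medians lay between 6.50 and 6.66. Values are on a log2 scale, a base inferred from their range of 3.90 to 15.49. A floor was set at the 40th percentile of genes on each array (5.95 to 6.01), and genes below it on both arrays of a pair were left out of that comparison. A gene was counted as different at 1.5-fold, a log2 difference of 0.585. All 8 genes reached the floor on all 4 arrays. The osteoblast label was checked with 8 measured markers of 12 listed. Runx2, Spp1, Bglap and Bglap2 were listed but not measured, so the check lacks them. Of the 8, 7 reached the floor on at least 1 array. Sparc and Postn were bright (13.84 to 14.07 and 13.07 to 13.42), and the regulators Dlx5 and Sp7 read 10.12 to 10.59 and 7.71 to 8.24. Alpl lay at the floor (5.93 to 6.09) and Ibsp below it. Of 50 measured markers of other cell types, 14 reached it on at least 1 array. The shares were 3 of 5 for chondrocytes (Sox9, Col2a1 and Col9a1) and 3 of 5 for myogenic cells (Acta1, Des and Myod1). Of these Sox9 read 10.50 to 11.01 and Acta1 8.53 to 8.96. They were 3 of 8 for macrophages (Cd68, Cd14 and Lyz2) and 2 of 7 for cytotoxic lymphocytes (Cd8a and Prf1). Keratinocytes had 2 of 7 (Krt10 and Trp63) and adipocytes 1 of 5 (Pparg). Mast cells and neutrophils had 0 of 7 and endothelial cells 0 of 6.

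Serpinb9b, a mouse paralogue of the granzyme B inhibitor gene Serpinb9, was low on a single array. Its log2 values were 9.32 with citalopram and 9.31 in control at day 7, and 9.32 with citalopram against 8.26 in control at day 3. The untreated day 3 array stood apart below the rest, which lay within 0.011 of each other. With citalopram the gene was 2.09-fold higher at day 3 (log2 difference 1.06), and in control it was 2.07-fold higher at day 7 than at day 3 (1.05). Both differences are taken against the same untreated day 3 array and are not separate observations. At day 7 the difference between citalopram and control was 0.01. By size, the day 3 difference ranked 3 among 12196 genes compared, a description, since the gene was chosen with these values known. In a bulk culture, fewer cells of a type and less RNA per cell cannot be told apart.

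Serpinb1a, whose human counterpart inhibits the neutrophil proteases elastase, cathepsin G and proteinase 3, was higher at day 7 in both arms. Its values were 8.89 with citalopram and 8.69 in control at day 7, and 7.80 with citalopram and 7.36 in control at day 3. Both day 7 arrays lay above both day 3 arrays. Day 7 exceeded day 3 by 1.09 with citalopram (2.13-fold) and by 1.33 in control (2.51-fold). These day differences share no array, and they ranked 79 of 12187 and 19 of 12201 by size. Serpinb1a was chosen with these values known, so the ranks are a description. Citalopram was higher than control by 0.20 at day 7 and by 0.44 at day 3, both short of 1.5-fold. Among the cell type markers, Col2a1, the cartilage collagen gene, was ordered by day in the same way, at 10.37 with citalopram and 10.60 in control at day 7, and 9.89 with citalopram and 9.37 in control at day 3. The bone collagen gene Col1a1 was so too, at 12.64 with citalopram and 12.59 in control at day 7, and 12.17 and 11.92 at day 3, with a day difference of 0.68 in control (1.60-fold). Among the other cell type markers that reached the floor, both day 7 arrays were above both day 3 arrays for Col1a2, Sparc, Trp63 and, narrowly, Cd68. Sox9, the regulator of the cartilage lineage, was not ordered so, at 10.78 with citalopram and 10.50 in control at day 7, and 11.01 with citalopram and 10.60 in control at day 3. The summed level of the 5 chondrocyte markers, of which 3 reached the floor, was 11.66 with citalopram and 11.62 in control at day 7, and 11.62 with citalopram and 11.21 in control at day 3, so it was lowest on the array on which Serpinb1a and Serpinb9b were lowest. Of the other cartilage markers, Acan and Matn1 were below the floor on all arrays and Col9a1 read 6.14 to 6.30, and the markers' part in these differences was not tested.

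Serpinb2, the PAI-2 gene, ran the other way with time. It read 7.36 with citalopram and 7.32 in control at day 7, against 8.10 with citalopram and 7.98 in control at day 3. The day 7 arrays were both below the day 3 arrays. Day 7 was lower than day 3 by a log2 difference of -0.74 with citalopram and -0.66 in control, that is 1.67-fold and 1.58-fold lower. With the floor at the 60th percentile of genes, Serpinb2 was below it and was not counted, which leaves 2 genes lower with citalopram and 0 in control. The citalopram differences were 0.04 at day 7 and 0.12 at day 3.

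Serpinb8, whose human counterpart inhibits the proprotein convertase furin in the test tube, was high on a single array. Values of 8.68 with citalopram and 8.74 in control at day 7 stood beside 9.34 with citalopram and 8.77 in control at day 3. The citalopram day 3 array was above the rest, which lay within 0.081 of each other. The citalopram difference was -0.05 at day 7 and 0.57 at day 3 (1.49-fold), just short of the 1.5-fold line. With citalopram, day 7 was 1.58-fold lower than day 3 (-0.66), a difference that uses the same high array, and in control the day difference was -0.03. Of the macrophage markers, Lyz2, the lysozyme gene, was also highest on that array, at 9.07 with citalopram and 8.60 in control at day 7, and 9.50 with citalopram and 8.93 in control at day 3. The other macrophage markers that reached the floor were highest elsewhere: Cd14 read 7.63 with citalopram and 7.48 in control at day 7, and 7.72 and 7.76 at day 3. Cd68 read 7.19 and 7.04 at day 7, and 7.01 and 7.02 at day 3. The summed level of the 8 macrophage markers, in which Lyz2 weighs most, was 10.07 with citalopram and 9.81 in control at day 7, and 10.31 with citalopram and 10.01 in control at day 3. Adgre1 (5.18 to 5.50) and Csf1r (5.37 to 5.46), which define macrophages, were below the floor, and the part of Lyz2-expressing cells in the Serpinb8 value was not tested.

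Serpinb9, which in mouse encodes the granzyme B inhibitor SPI6, differed by less than 1.5-fold in every comparison. It read 8.82 with citalopram and 9.09 in control at day 7, and 9.17 with citalopram and 9.07 in control at day 3. The citalopram day 7 array was lowest, with a difference from control of -0.27, against 0.10 at day 3. Unlike its neighbour Serpinb9b, it had about the same value on both control arrays, with a day difference of 0.02.

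Serpinb6a, the mouse counterpart of a human cathepsin G inhibitor gene, read 12.38 with citalopram and 12.34 in control at day 7, and 12.09 and 12.10 at day 3. Both day 7 arrays were above both day 3 arrays, by 0.29 with citalopram and 0.24 in control, under the 1.5-fold line. The citalopram differences were 0.04 at day 7 and -0.01 at day 3.

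Plau, the urokinase gene, was the flattest of the 8, with a range of 0.17 over the arrays. It read 9.64 with citalopram and 9.60 in control at day 7, and 9.48 with citalopram and 9.58 in control at day 3. The citalopram differences were 0.05 at day 7 and -0.11 at day 3. The day differences were 0.17 with citalopram and 0.01 in control.

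Plat, the tissue-type activator gene, was lower at day 7. It read 9.29 with citalopram and 9.28 in control at day 7, against 9.94 with citalopram and 9.69 in control at day 3. The day 7 arrays were alike and lay below both day 3 arrays. Day 7 was 1.57-fold lower than day 3 with citalopram (-0.65) and 1.33-fold lower in control (-0.41), where it fell short of the line. The citalopram difference was 0.01 at day 7 and 0.25 at day 3.

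**Figure D1:**
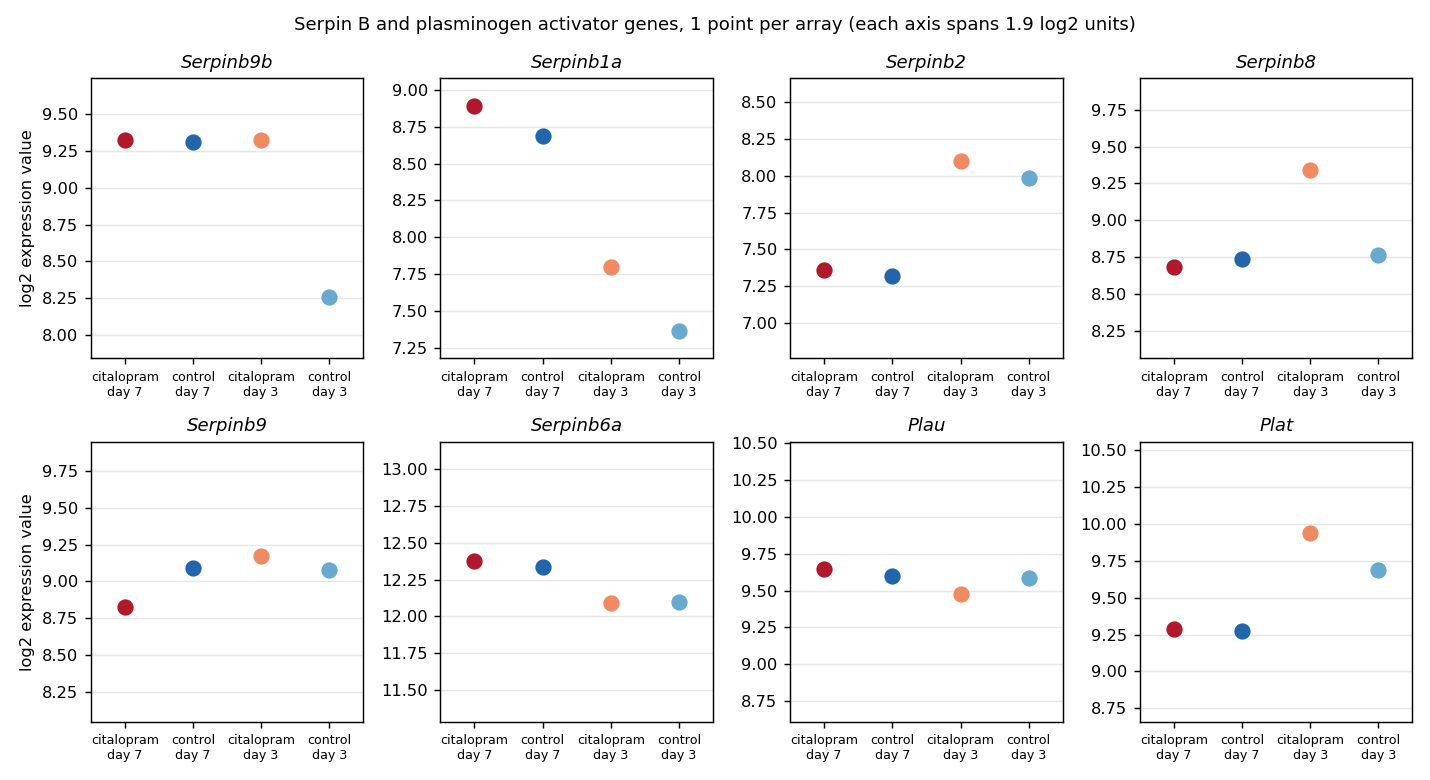
Log2 expression value (vertical axis, 1.9 log2 units in every panel) of each of the 8 genes on the citalopram day 7, control day 7, citalopram day 3 and control day 3 arrays, 1 point per array and no error bars since no group has a replicate. Serpinb9b was low on the control day 3 array alone (8.26) and Serpinb8 high on the citalopram day 3 array alone (9.34), whereas Serpinb1a, Serpinb2 and Plat separated by day.

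With citalopram at day 7, 0 of the 8 genes were 1.5-fold higher and 0 were lower than control, where 0.559% and 0.945% of 12167 genes were. At day 3, 1 was higher (Serpinb9b) and 0 were lower, beside 0.500% and 0.303% of 12196 genes. Between the days, 1 gene was higher with citalopram (Serpinb1a) and 3 lower (Serpinb2, Serpinb8 and Plat), beside 2.0% and 2.81% of 12187 genes. In control, 2 were higher at day 7 (Serpinb9b and Serpinb1a) and 1 lower (Serpinb2), beside 1.16% and 1.13% of 12201 genes. Because the genes were selected on these arrays, nothing is read from these counts against the background.

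The citalopram change at day 7 was lower than that at day 3 by at least 1.5-fold for Serpinb9b (difference of the differences -1.05) and Serpinb8 (-0.63), and higher for 0 of the 8. Over all 12415 genes this held for 1.83% in the lower and 1.15% in the higher direction. For Serpinb9b it comes from the low untreated day 3 array, and for Serpinb8 from the high citalopram day 3 array. The other values were -0.37 for Serpinb9, -0.24 for Plat, -0.23 for Serpinb1a, -0.08 for Serpinb2, 0.05 for Serpinb6a and 0.15 for Plau. The median log2 difference of the 8 genes for citalopram against control was 0.03 at day 7 and 0.18 at day 3, beside 0.01 and 0.03 over all genes compared. For day 7 against day 3 it was -0.17 with citalopram and 0.02 in control, beside -0.04 and -0.01. Since the 8 genes were chosen with these values known, nothing is read from their medians against the rest.

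**Figure D2:**
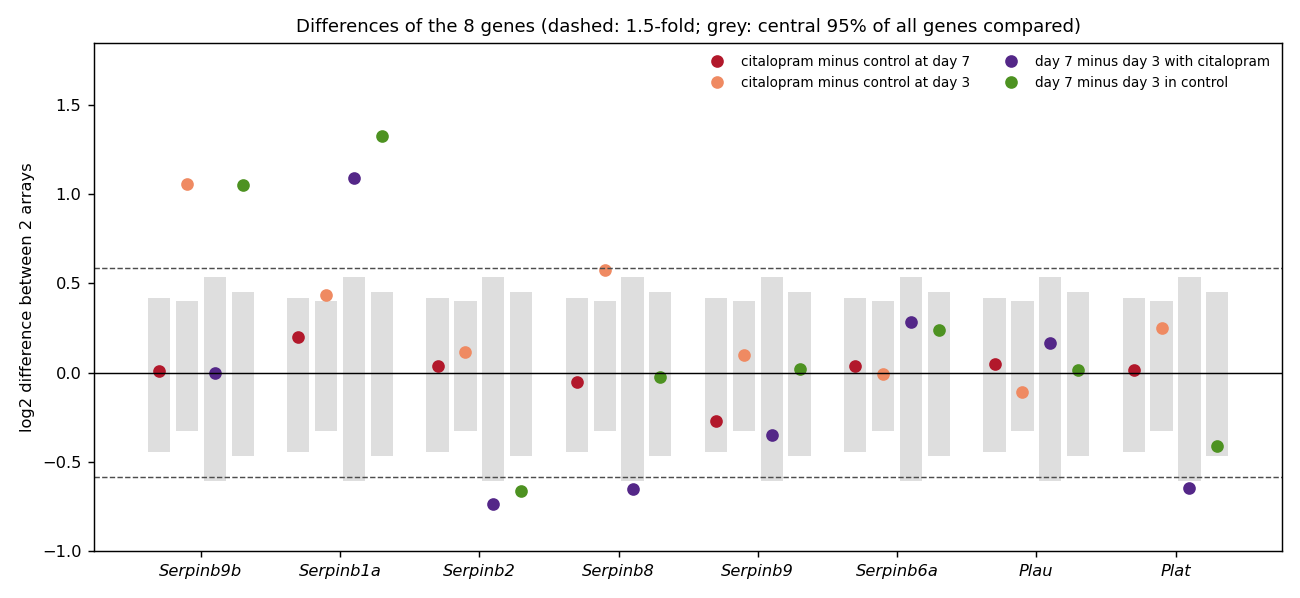
Log2 difference between 2 arrays (vertical axis) for the 8 genes in 4 comparisons, 1 point each. Grey bars span the central 95% of all genes in that comparison and dashed lines mark 1.5-fold. Serpinb9b and Serpinb1a lie highest, and no point for citalopram against control at day 7 reaches a dashed line.

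Of 22 other serpin B genes listed, 18 were measured and 5 reached the floor on at least 1 array. Of these 5, 0 were 1.5-fold different in any of the 4 comparisons. Of all genes compared, 0.303% to 2.81% passed the line, depending on comparison and direction, so nothing is read from this count. Serpinb6b and Serpinb3a had the highest array values of the list. Serpinb6b read 7.41 with citalopram and 7.48 in control at day 7, and 7.62 with citalopram and 7.65 in control at day 3. Serpinb3a, a mouse relative of the human squamous cell carcinoma antigens, read 6.69 with citalopram and 6.85 in control at day 7, and 6.91 and 6.53 at day 3. Its citalopram difference at day 3, 0.38, was the largest among the 18 measured genes of the list. Over the 18 measured genes, the median difference for citalopram against control was -0.05 at day 7 and 0.14 at day 3. For day 7 against day 3 it was -0.11 with citalopram and 0.02 in control. These medians include the genes below the floor, and only 5 of the 18 reached it. Without a floor, the medians over all genes were -0.02 and 0.03 for citalopram at day 7 and day 3. By day they were -0.05 with citalopram and 0.001 in control.

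Along the chromosome 13 cluster, 9 measured genes besides the 4 described above had citalopram differences between -0.03 and 0.22 at day 3 and day differences in control between -0.17 and 0.38. Serpinb1a and Serpinb9b stood above every one of these 9 in both comparisons, although only 3 of the 9 reached the floor. Both comparisons use the control day 3 array, on which both genes were lowest, so they are not separate observations. The genes described were also chosen with these values known, so their place above the others is a description. In the chromosome 1 cluster, the 9 measured genes besides Serpinb2 and Serpinb8 had day differences with citalopram between -0.22 and 0.08, and 2 of them reached the floor. Serpinb2 (-0.74) and Serpinb8 (-0.66) both lay below this range. Paralogues of Serpinb9 are alike in sequence, and whether probes of one gene also bind transcripts of another was not tested.

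**Figure D3:**
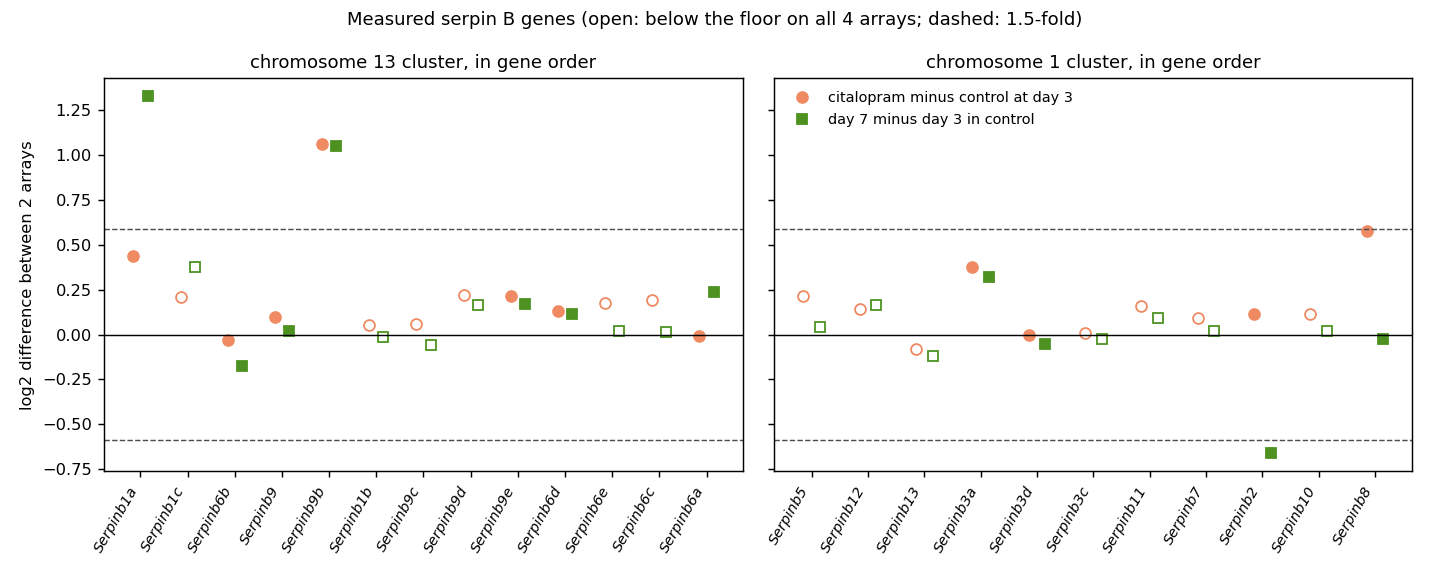
Log2 difference (vertical axis) of the measured serpin B genes in their order along chromosome 13 and chromosome 1, for citalopram against control at day 3 (circles) and day 7 against day 3 in control (squares); both use the control day 3 array. Filled symbols reached the floor on at least 1 array. Serpinb9b is high in both comparisons, Serpinb1a mainly in the day comparison, and Serpinb2 is low in the day comparison.

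Of 30 other genes of the plasminogen system, 25 were measured and 16 reached the floor on at least 1 array. With citalopram against control, 0 were 1.5-fold different at day 7 or at day 3. Of all genes compared, 0.559% were higher and 0.945% lower at day 7, and 0.500% and 0.303% at day 3. At day 7 against day 3, 2 of 15 compared were lower with citalopram (Plaur and F3), beside 2.81% of all genes compared. In control, of 16 compared, 1 was higher (Lrp1) and 1 lower (Itgb3), beside 1.16% and 1.13% of all genes compared. The list was chosen with earlier results known, so nothing is read from these counts against the background. The median difference over the 25 measured genes was -0.02 at day 7 and 0.01 at day 3 for citalopram against control. For day 7 against day 3 it was -0.083 with citalopram and -0.0048 in control. These medians include the genes below the floor.

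Plaur encodes the cell surface receptor that holds urokinase. It read 9.22 with citalopram and 9.49 in control at day 7, and 9.85 on both day 3 arrays. Both day 7 arrays were thus lower, with day differences of -0.63 with citalopram and -0.35 in control. Those of its ligand Plau were 0.17 and 0.01. F3, the tissue factor gene that starts clotting, read 11.45 with citalopram and 11.37 in control at day 7, and 12.18 and 11.91 at day 3. Its day difference was -0.73 with citalopram and -0.54 in control.

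Lrp1 encodes the endocytic receptor that clears complexes of activators with their inhibitors. It read 12.22 with citalopram and 12.51 in control at day 7, against 11.80 with citalopram and 11.53 in control at day 3. The day difference was 0.42 with citalopram and 0.98 in control (1.97-fold), and the citalopram difference was -0.28 at day 7 and 0.27 at day 3. Itgb3, the β3 integrin gene, read 8.30 with citalopram and 7.79 in control at day 7, and 8.61 and 8.41 at day 3. The control day 7 array was lowest, and the day difference was -0.63 in control and -0.31 with citalopram.

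The surface plasminogen receptor pair S100a10 and Anxa2 was bright and varied little. S100a10 read 13.72 on both day 7 arrays, and 13.54 with citalopram and 13.55 in control at day 3. Anxa2 read 13.49 with citalopram and 13.44 in control at day 7, and 13.30 and 13.20 at day 3. Plg, the plasminogen gene, lay below the floor on all arrays (5.63 to 5.71), as is usual outside the liver.

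**Figure D4:**
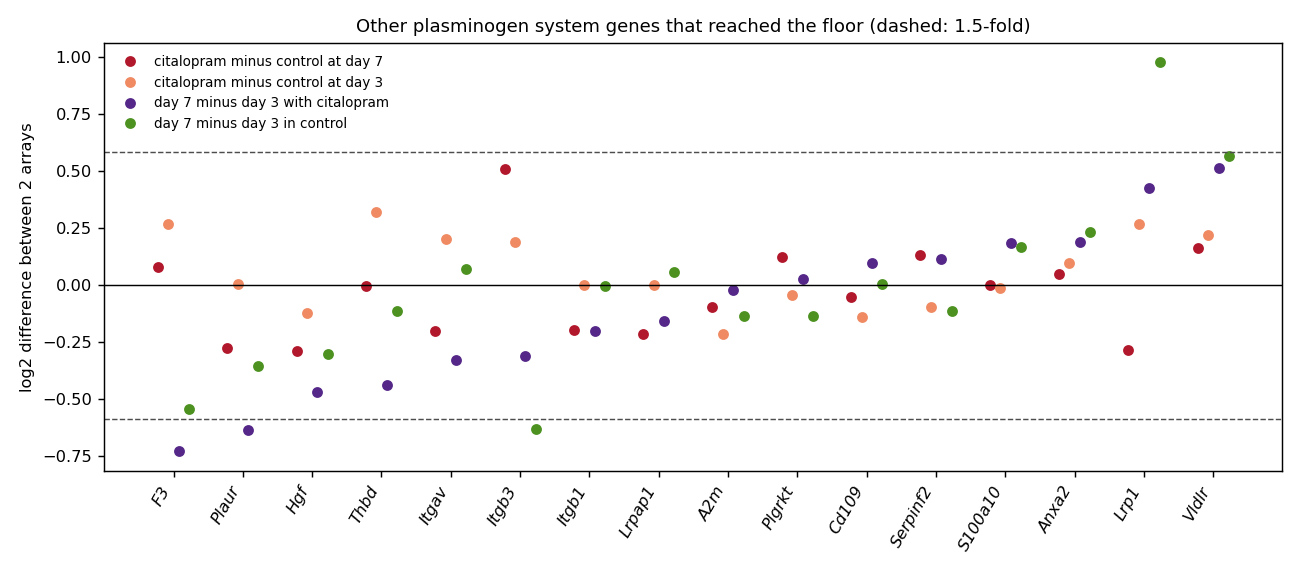
Log2 difference between 2 arrays (vertical axis) for the 16 other plasminogen system genes that reached the floor, ordered by their day 7 minus day 3 difference with citalopram, 1 point per comparison. F3 and Plaur are lowest with citalopram by day (-0.73 and -0.63), Lrp1 is highest in control by day (0.98), and no point for citalopram against control passes the dashed 1.5-fold lines.

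Of 25 proteases known as serpin B targets or found in their compartment, 24 were measured and 10 reached the floor. The granzyme genes Gzma, Gzmb, Gzmc, Gzmd, Gzme, Gzmf and Gzmk and the neutrophil protease genes Ctsg, Elane and Prtn3 lay below it on all arrays. Gzmg (5.55 to 6.05) and Gzmm (5.84 to 6.14) lay around the floor and passed it on at least 1 array. With citalopram against control, 0 of the list were 1.5-fold different at either day. The shares of all genes compared were 0.559% higher and 0.945% lower at day 7, and 0.500% and 0.303% at day 3. At day 7 against day 3, 3 of 9 compared were lower with citalopram, beside 2.81% of all genes compared. In control 0 of 10 compared were lower, beside 1.13%. This list too was chosen with earlier results known, and nothing is read from its counts. Furin, the human SERPINB8 target, read 9.44 with citalopram and 9.59 in control at day 7, and 10.07 and 10.04 at day 3. Its day difference was -0.63 with citalopram and -0.46 in control, beside -0.66 and -0.03 for Serpinb8.

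Ctsh, a lysosomal cathepsin gene, had a day difference of -0.74 with citalopram and -0.32 in control. Casp8, the initiator caspase gene of death receptors, had -0.74 with citalopram and -0.28 in control. The medians of this list were -0.01 at day 7 and 0.09 at day 3 for citalopram against control, and -0.11 with citalopram and -0.06 in control for day 7 against day 3. Of 25 serpins of other clades, 15 were measured and 6 reached the floor. Of these 6, 0 were 1.5-fold different in any comparison, where 0.303% to 2.81% of all genes compared were, depending on direction. The medians of the 15 were -0.06 and 0.09 for citalopram against control at day 7 and day 3. For day 7 against day 3 they were -0.05 with citalopram and 0.04 in control. The medians of the protease list and of this one include the measured genes below the floor.

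For the 5 genes whose range over the arrays reached 0.585, the 3 genes of nearest profile were found among 11535 genes by the Euclidean distance between 4 values, each centred on its own mean. Nearest to Serpinb9b were Efhd1 (distance 0.18), an EF-hand protein gene, Ampd3 (0.33), an AMP deaminase gene, and Xdh (0.39), the xanthine dehydrogenase gene. Efhd1 read 10.13 with citalopram and 9.90 in control at day 7, and 10.00 and 9.04 at day 3, so it too was lowest on the untreated day 3 array. Nearest to Serpinb1a were Rpph1 (0.13), the RNA component of RNase P, Thsd4 (0.24) and the corneodesmosin gene Cdsn (0.27), all higher at day 7 in both arms.

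Nearest to Serpinb2 were Abracl (0.026), Lrp11 (0.041) and Adam12 (0.060), a metalloprotease-disintegrin gene, whose day differences lay between -0.75 and -0.58 in either arm. Nearest to Serpinb8 were Elovl4 (0.017), a fatty acid elongase gene, Hspb8 (0.080), a small heat shock protein gene, and Il6 (0.089), the interleukin 6 gene. Il6 read 6.29 with citalopram against 5.73 in control at day 3, and 5.56 and 5.61 at day 7, so only the citalopram day 3 array was above the floor. Nearest to Plat were Sphk1 (0.040), a sphingosine kinase gene, Mkx (0.041), the tendon regulator mohawk, and Amacr (0.055). With 4 values a gene, likeness of profile is a description of these arrays.

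Proliferation markers were lower with citalopram mainly at day 7. Of 9 measured, 5 were 1.5-fold lower with citalopram at day 7 (Cenpa, Bub1, Tk1, Cdk1 and Rrm2), where 0 of the 8 genes passed the line. At day 3, 0 of the markers were lower. Over all genes compared, 0.945% were lower at day 7 and 0.303% at day 3. Between the days, 2 of the 9 were lower with citalopram (Bub1 at -0.76 and Cenpa at -0.62), beside 2.81% of all genes compared. The others read -0.57 (Rrm2), -0.56 (Mcm5), -0.22 (Cdk1), -0.20 (Pcna), -0.12 (Tk1), -0.08 (Top2a) and 0.04 (Mki67). Serpinb2, Serpinb8 and Plat were lower in the same comparison. In control 0 of the proliferation markers differed by 1.5-fold between the days, beside 1.16% of all genes higher and 1.13% lower. Serpinb2 and Plat were lower at day 7 in control too (-0.66 and -0.41). As for the other lists, nothing is read from these counts. The part of proliferation in the differences of Serpinb2, Serpinb8 and Plat was not tested.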

How the data were processed

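Array values of 4 samples, 1 per group, were used as deposited by the authors, on a log2 scale inferred from the values. Per the submitters' processing notes, Partek was used. Neither its version nor the background correction, scaling between arrays or probe summary is stated there. Per the labels' protocols, biotin-labelled cDNA was made from 250 ng total RNA with Ambion and Affymetrix whole-transcript kits, from wells seeded with 50000 cells. The array medians differ, so a shift shared by all genes can enter every difference.

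Of 35556 features, 21789 carried 1 gene symbol, 1621 several and 12146 none, per the platform annotation. Genes were named from features with 1 symbol, and the feature with the highest mean was kept where a gene had several. Differences of log2 values were taken between pairs of arrays. With 1 array per group no test was made, and the number of arrays limits the precision. The genes, lists, motif and counting rules were chosen with earlier results of these data known. Genes outside the 8 were named where they passed 1.5-fold, as the 2 brightest of the other serpin B and plasminogen lists, as cell markers, as the 3 nearest profiles, or as examples of genes below the floor. Counting was tested on simulated data. Alternatives covered scaling, choice of feature, the floor and the fold. Python 3.11.15 with pandas 2.3.3, numpy 2.4.6, Biopython 1.88 and matplotlib 3.10.9 was used. Promoter sequences are from RefSeq, build GRCm38.p6.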

Additional observations from a re-analysis of the deposited data

Results flagged for a closer look

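Some of the 8 genes had changes of opposite sign in the 2 arms or on the 2 days, and none of these contrasts was tested, since no group has a replicate. For the day change, Serpinb9b differed between citalopram and control by -1.05: its day 7 and day 3 values with citalopram were alike to the second decimal, against 1.05 higher at day 7 in control. The citalopram change of Serpinb8 was -0.05 at day 7 and 0.57 at day 3, a difference of -0.63. For Serpinb9 the citalopram change was -0.27 at day 7 and 0.10 at day 3, and the day change -0.35 with citalopram and 0.02 in control, a difference of -0.37 either way. Smaller sign changes were seen for Plau (0.05 at day 7 and -0.11 at day 3, difference 0.15) and Serpinb6a (0.039 and -0.0083, difference 0.048). Several of these signs depended on the scaling. Over the 3 scalings, the day change of Serpinb9b with citalopram was -0.15 to 0.018, and that of Serpinb9 in control -0.088 to 0.037. The citalopram change at day 7 was -0.0095 to 0.017 for Plau and -0.016 to 0.072 for Serpinb6a.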

How the results depend on the processing

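All 200 member differences recomputed under 3 scalings and 2 choices of feature stayed on their side of the 1.5-fold line. Each of the 8 genes has 1 feature, so the 2 choices of feature could not change its values. For these genes only the scalings could have moved a difference. Of 77 counts, 70 stayed within 1.5 times, and among these the counts of the 8 genes under the choices of feature rest on unchanged values. For Serpinb9b, the citalopram difference at day 3 was 1.02 to 1.05 over the 3 scalings, and the day difference in control 0.94 to 1.06. For Serpinb1a, the day difference was 0.94 to 1.08 with citalopram and 1.22 to 1.36 in control. Centring each array on its median over all features moved the median day difference of all genes by -0.16 with citalopram and -0.11 in control, and Serpinb8 reached -0.81 there. The counts that moved did so by the fold chosen. At 1.3-fold, 3 of the 8 genes were higher with citalopram at day 3 instead of 1. Of the genes on the serpin, plasminogen and target protease lists, 1 then passed for citalopram at day 7 instead of 0, 9 for the days with citalopram instead of 5, and 6 for the days in control instead of 2. At 2-fold, 1 of the 8 passed for the days with citalopram instead of 4, and 0 list genes in either day comparison. No total count moved past 1.5 times without a floor or with one at the 60th percentile, but with the higher floor Serpinb2 was no longer compared, leaving 2 of the 8 lower by day with citalopram and 0 in control. Counting features with several symbols, a setting added after the data were seen, moved none past 1.5 times. Small differences changed sign with the scaling, among them those for citalopram at day 7 in Serpinb9b, Serpinb2, Serpinb6a, Plau and Plat. So did those between the days in control in Serpinb8, Serpinb9 and Plau, and that between the days with citalopram in Serpinb9b. No paired analysis was possible because each group has 1 array. Single arrays set each difference, and leaving one out leaves no value.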

Other observations

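On 3 features annotated to Serpinb9d, Serpinb9e, Serpinb9f and Serpinb9g together, which name no single gene, values lay between 5.62 and 5.74 with citalopram and between 5.86 and 6.02 in control at day 7. At day 3 they lay between 5.84 and 6.05 with citalopram and between 5.62 and 5.74 in control. The citalopram difference was thus -0.31 to -0.23 at day 7 and 0.22 to 0.31 at day 3. These dim features were low on the untreated day 3 array, as Serpinb9b was, but also on the citalopram day 7 array, where Serpinb9b was not.

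Trp63, a p53 family gene of basal epithelia, read 7.83 with citalopram and 7.73 in control at day 7, and 7.27 with citalopram and 7.44 in control at day 3. The basal keratin genes Krt5 (5.14 to 5.45) and Krt14 (5.63 to 5.82) lay below the floor on all arrays.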
